A study of Mus musculus with 71 samples.

Results

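MHC class II transcripts were followed through 3 cell preparations of the mouse gut: intestinal epithelial cells (IECs), sorted γδ intraepithelial lymphocytes (IELs) and whole intestinal tissue. The 7 genes were taken by symbol: H2-Aa, H2-Ab1, H2-Eb1, Cd74, Ciita, H2-DMa and H2-DMb1. They made up 7 of the 24475 gene identifiers in each bulk RNA-seq table and 7 of the 25127 rows of the single-cell tables, and each was found under its symbol in all of them. All 7 passed the filter on low counts in every bulk comparison.

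The study compared Btnl2-/- (Btnl2-KO) with wild-type (WT) C57BL/6 mice, cohoused female littermates, to learn what the butyrophilin-like molecule Btnl2 does in the gut. The knockout carried a LacZ reporter at the start codon of Btnl2 with a selection cassette behind it. IECs came from 7-week-old mice and were the upper layer of a density gradient after EDTA stripping, and gave 3 WT and 2 KO libraries of duodenum, 3 WT and 3 KO of jejunum, and 2 WT and 3 KO of ileum. The γδ IELs came from 10-week-old mice, each library a pool of mice sorted as CD45+ TCRβ- TCRγδ+, and gave 4 WT and 3 KO libraries of duodenum, 4 WT and 4 KO of jejunum, and 4 WT and 3 KO of ileum. Whole small intestine gave 7 WT and 7 KO libraries and whole colon 6 WT and 7 KO. Their labels read YNG, taken here as young, and give no age in weeks. A single-cell RNA-seq library of γδ IELs pooled from mice aged 8 to 10 weeks was made for each genotype and segment, 6 in all. The study describes them as a portion of the sorts that also gave bulk RNA, so the 2 assays of γδ IELs are not independent. No label ties a bulk library to an animal across preparations, and p-values measure the spread between these libraries.

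MHC class II molecules are heterodimers on the surface of antigen-presenting cells that show peptides from engulfed proteins to CD4+ T cells. The α and β chains assemble in the endoplasmic reticulum with the invariant chain, which blocks the groove and steers them to endosomes, where the H2-DM editor exchanges the last invariant chain fragment for antigenic peptide. The genes are switched on together by the coactivator CIITA, which is constitutive in B cells and dendritic cells and is induced by interferon-γ in other cells, the small intestinal enterocyte among them. Enterocytes in the villus are known to carry class II, and mouse T cells in general carry very little.

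H2-Aa encodes the α chain of the I-A molecule and H2-Ab1 its β chain. H2-Eb1 encodes the β chain of I-E, whose α partner H2-Ea is not expressed in the b haplotype of C57BL/6 mice. H2-Ea was at 0 in all 16 IEC and all 22 IEL libraries. Cd74 encodes the invariant chain, Ciita the coactivator, and H2-DMa and H2-DMb1 the 2 chains of H2-DM. On GRCm38, H2-Aa lies at chr17:34282744-34287823, H2-Ab1 at chr17:34263227-34269418, H2-Eb1 at chr17:34305867-34316674, H2-DMa at chr17:34119693-34139101 and H2-DMb1 at chr17:34153191-34160229. Btnl2, at chr17:34354789-34369492, is their neighbor in the same stretch of the chromosome. Ciita lies elsewhere, at chr16:10480014-10531064.

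CIITA does not bind DNA. It is recruited by RFX and NF-Y complexes sitting on the X and Y boxes ahead of class II genes, so the stretch between these boxes is shown for the genes that have one. RefSeq promoter windows of GRCm38.p6, from 250 bases before to 50 after a start, were available for H2-Aa, H2-Eb1, H2-DMb1 and H2-DMa (2 windows), but not for H2-Ab1, Cd74 and Ciita. They were searched on the gene's strand for GNAAC, the core of the X box, followed 10 to 30 bases later by ATTGG, the core of the Y box (CCAAT on the other strand). The pair was present in 3 of the 4 members with a window and in 572 of 32851 windows of all genes (1.741%), or in 3.51% on either strand. The 3 members are followed here by 3 class II relatives that hold the pair, each 5′ to 3′ on the gene's strand with both cores in capitals:
H2-Aa: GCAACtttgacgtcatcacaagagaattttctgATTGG
H2-Eb1: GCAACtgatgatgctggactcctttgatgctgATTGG
H2-DMb1: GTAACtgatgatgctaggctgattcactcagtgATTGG
H2-Eb2: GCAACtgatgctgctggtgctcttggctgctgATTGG
H2-Oa: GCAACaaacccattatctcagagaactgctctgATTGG
H2-Ob: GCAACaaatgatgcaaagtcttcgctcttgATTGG

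The stretch of H2-Aa is at chr17:34287867-34287904 on the minus strand and opens 81 bases upstream of the start. That of H2-Eb1 is at chr17:34305776-34305812 and that of H2-DMb1 at chr17:34153097-34153134, both on the plus strand. Between the cores of the members 28, 27 and 28 bases were counted, in the order printed. Neither window of H2-DMa, nor those of H2-DMb2 and Btnl2, held this pair of letters, which says nothing of whether the factors bind there.

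The bulk tables held 15397757 to 38258472 assigned reads per IEC library, 13444958 to 30029485 per IEL library and 13619309 to 21708721 per tissue library, and H2-Aa itself had 320 to 16020 reads. In the KO libraries Btnl2 was at 0 to 0.123 CPM (a read count scaled to the normalized size of its library) in γδ IELs and at 0.675 to 2.44 CPM in the small intestine, against 2.47 to 9.89 and 23.9 to 103 CPM in WT. Among IECs, 3 KO libraries stood apart. Ileum KO library 1 had 0.231 CPM of the ileal bile acid binding protein gene Fabp6 and 153 CPM of Gata4, a transcription factor gene of the proximal gut. Duodenum KO library 1 had 220.3 CPM of Fabp6, and jejunum KO library 2 had 484 CPM of Fabp6 together with 19.5 CPM of Btnl2. Duodenum KO library 1 also had 5.45 CPM of Btnl2, against 0.342 to 0.595 CPM in the other 6 KO libraries of IECs and 25.1 to 67.7 CPM in WT. The regional genes of these 3 libraries go against their labels, and the differences of the 7 genes between KO and WT IECs are given with and without them. Cd3e set IECs and γδ IELs apart, at 846 to 1923 CPM in γδ IELs and at most 21.8 CPM in IECs. The summed CPM of 12 pan-epithelial genes overlapped, at 8561 to 13970 in IECs and 605 to 9245 in γδ IELs. The sorted IEL libraries thus held RNA of these genes as well.

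All 7 genes were expressed in each preparation, in different proportions. CPM were divided by the length of the union of all annotated exons of a gene, 1679 bases for Cd74 to 9535 for Ciita, to give a level per kilobase. The union can be longer than the transcript made, by an amount that may differ between genes. The orders and shares of genes on this level depend on these lengths. The invariant chain led everywhere, with a mean of 475 CPM per kb in WT ileal IECs, 319 in WT ileal γδ IELs and 979 in WT small intestine. In WT ileal IECs it was followed by H2-Eb1 at 82.2, H2-Ab1 at 79.0 and H2-Aa at 59.0 CPM per kb, then by H2-DMb1 at 22.5 and H2-DMa at 12.8, with Ciita last at 2.15. In WT ileal γδ IELs the order differed below Cd74: H2-Ab1 at 116, H2-Eb1 at 60.7, H2-Aa at 35.9, H2-DMa at 33.6, H2-DMb1 at 32.1 and Ciita at 0.871. The 3 tables were processed separately, so levels set side by side across them carry that reservation. Shares within a library are free of its scaling, though not of differences between the preparations that act gene by gene. As the median over libraries, H2-DMa made up 13.1% of the summed per-kilobase level of the 7 genes in γδ IELs, against 2.11% in IECs and 1.23% in whole tissue. Cd74 made up 47.1%, 66.6% and 57.4%. In CPM, the ratio of H2-DMa to H2-Aa was 0.661 to 5.97 in the 22 IEL libraries, 0.184 to 0.671 in the 16 IEC libraries and 0.0944 to 0.169 in the 27 tissue libraries. The IEL and tissue ranges did not overlap, and those of IELs and IECs overlapped only between 0.661 and 0.671.

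**Figure D1:**
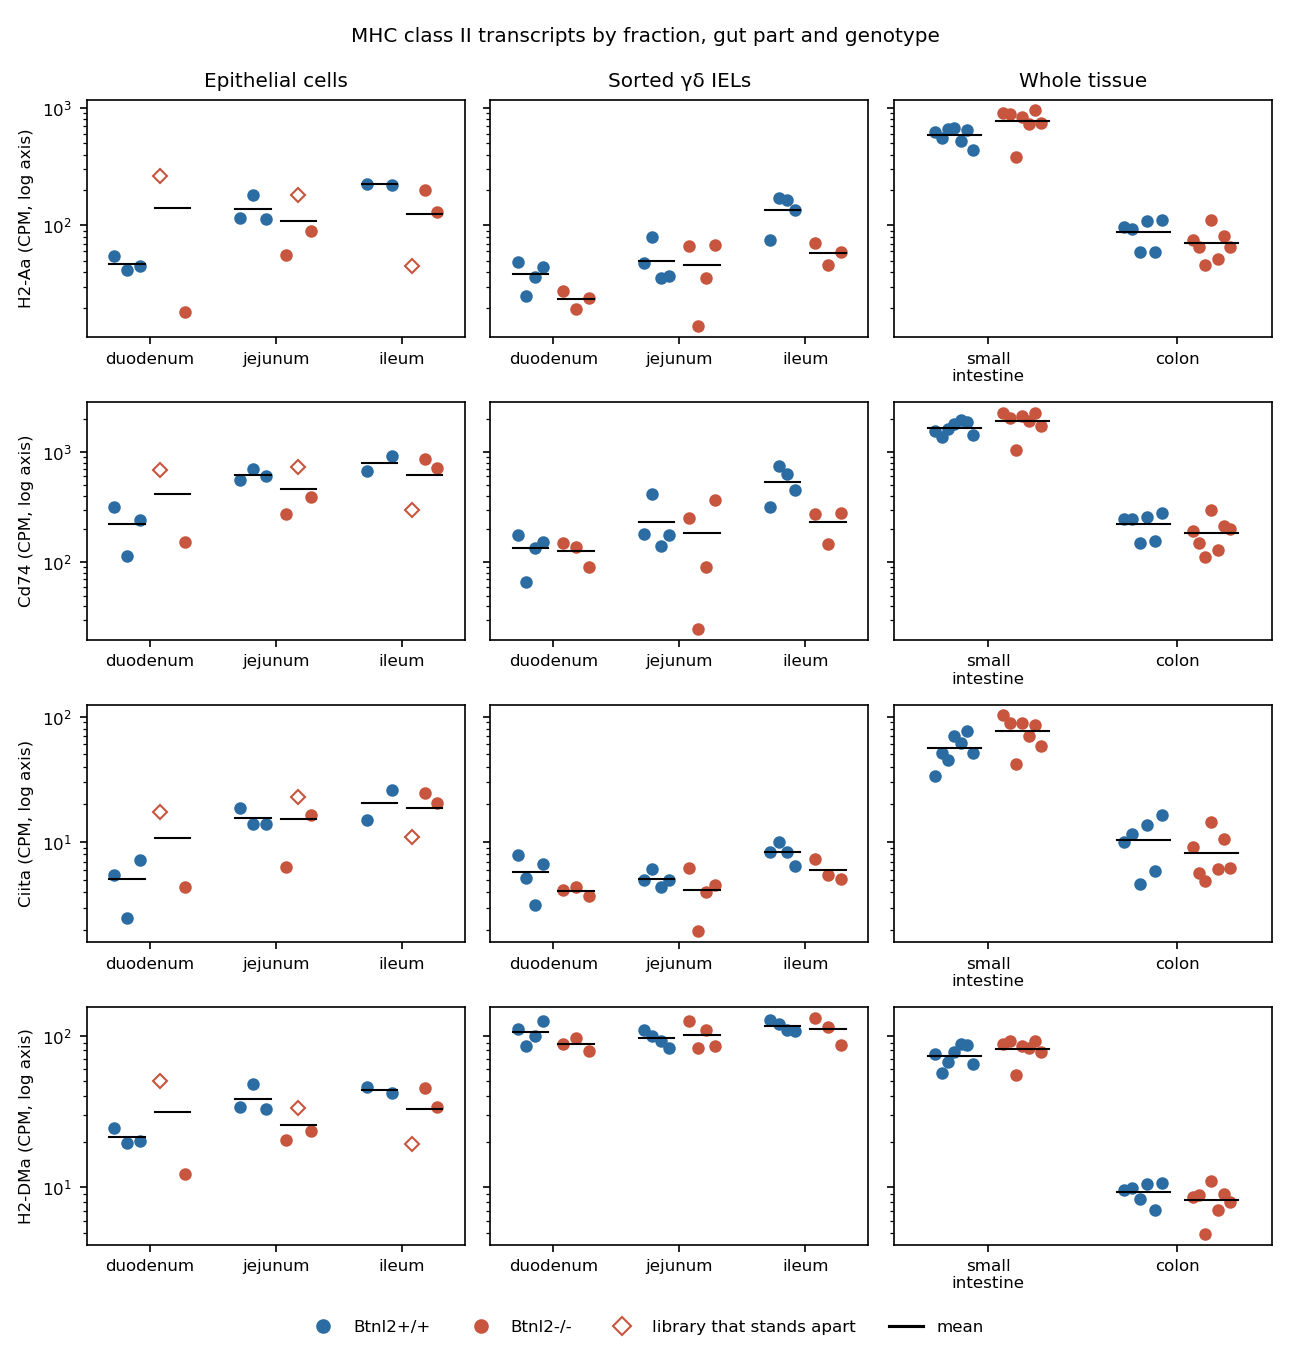
CPM of H2-Aa, Cd74, Ciita and H2-DMa (rows, log axes) in every bulk library of epithelial cells, sorted γδ IELs and whole tissue (columns), by gut part and genotype, with a line at each group's mean and open diamonds for the 3 epithelial libraries whose regional genes go against their labels. H2-Aa climbs from 41.7 to 54.7 CPM in WT duodenal IECs to 222 to 226 CPM in WT ileal IECs, while H2-DMa in γδ IELs keeps to 79.0 to 131 CPM in all 22 libraries.

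In WT epithelium the class II genes were higher toward the ileum. H2-Aa was at 54.7, 41.7 and 45.3 CPM in the 3 duodenal libraries, at 117, 179.8 and 114 CPM in the 3 jejunal ones and at 226 and 222 CPM in the 2 ileal ones, with no overlap between segments. Cd74 went from 316, 115 and 240.1 CPM in the duodenum to 551, 702 and 608 CPM in the jejunum and 673 and 921 CPM in the ileum. Ciita was at 5.46, 2.48 and 7.19 CPM in the duodenum, 18.7, 14.04 and 14.02 CPM in the jejunum and 14.9 and 26.0 CPM in the ileum. For all 7 genes each ileal library was above each duodenal library, and each jejunal one was too. Groups of 2 and 3 libraries often lie apart: over all genes tested, 37.3% did not overlap between ileum and duodenum and 19.9% between jejunum and duodenum, in either direction. Between ileum and jejunum 3 of the 7 genes did not overlap, H2-Aa among them, and 2836 of 12874 genes tested did not.

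Between ileum and duodenum, 5 of the 7 genes were called higher by edgeR's quasi-likelihood test (Benjamini-Hochberg FDR under 0.05 and over 1.5-fold), when 4.42% of the 12784 genes tested were called and 2.78% called higher. H2-Aa rose by 2.26 on the log2 scale (SE 0.211, edgeR FDR 0.00425), H2-Eb1 by 1.64 (SE 0.246, FDR 0.0174) and H2-Ab1 by 1.54 (SE 0.258, FDR 0.0232). The editor rose with the chains it serves, H2-DMb1 by 1.55 (SE 0.213, edgeR FDR 0.0129) and H2-DMa by 1.05 (SE 0.205, FDR 0.0378). Cd74 and Ciita were 1.84 (SE 0.412) and 2.02 (SE 0.447) higher on the log2 scale but missed the threshold, at edgeR FDR 0.0606 and 0.0576. The count rests on 2 ileal and 3 duodenal libraries: it ran from 0 to 7 when each was left out in turn, and it was 0 of 7 when all IEC libraries shared 1 estimate of spread, a setting in which 0 of 13344 genes were called and all 7 members had an unadjusted p under 0.05.

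Jejunum stood above duodenum by 0.86 (H2-DMa) to 1.64 (Ciita) on the log2 scale, with H2-Aa at 1.55 (SE 0.242, edgeR FDR 0.0525). None of the 7 was called by edgeR, at FDRs of 0.052 to 0.19, against 0.32% of all genes. Each of the 7 had an unadjusted p under 0.05, as did 11.3% of all genes, and DESeq2 called all 7, with 2.63% of all genes called. Ileum and jejunum were closer. The 7 differences ran from 0.20 to 0.72 on the log2 scale, all toward the ileum, H2-Aa had the widest (0.72, SE 0.229, edgeR FDR 0.307), and 0 were called against 1.13% of all genes, with 2 of 7 under an unadjusted p of 0.05 against 8.18% of all genes. The means of all 7 genes in WT epithelium were thus in the order duodenum, jejunum, ileum, and of the neighboring segments neither pair was separated by edgeR for any of the 7.

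Per 1000 CPM of the pan-epithelial genes, H2-Aa was at 4.09 ± 0.974 CPM (SD, n = 3) in the WT duodenum, 11.7 ± 1.72 (n = 3) in the jejunum and 17.1 ± 0.712 (n = 2) in the ileum, so the same order held relative to epithelial RNA. Markers of professional antigen-presenting cells were low in these libraries. The summed CPM of 5 B cell genes was 0.675 to 5.50 and that of 10 myeloid and dendritic genes 4.33 to 18.9. In WT the myeloid and dendritic sum was 10.2 to 11.6 CPM in the duodenum, 14.5 to 18.9 CPM in the jejunum and 13.2 to 15.3 CPM in the ileum, so that it too was lowest in the duodenum. Within groups H2-Aa was related to it over the 16 libraries at r = 0.506 (permutation p = 0.0415, adjusted p = 0.0889; rho = 0.571, p = 0.0581, adjusted p = 0.115), and r was 0.298 without the 2 farthest. The part of these cells in the levels was not tested. In bulk RNA, fewer cells that express a gene and less RNA per cell cannot be told apart, here and in every comparison below.

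**Figure D2:**
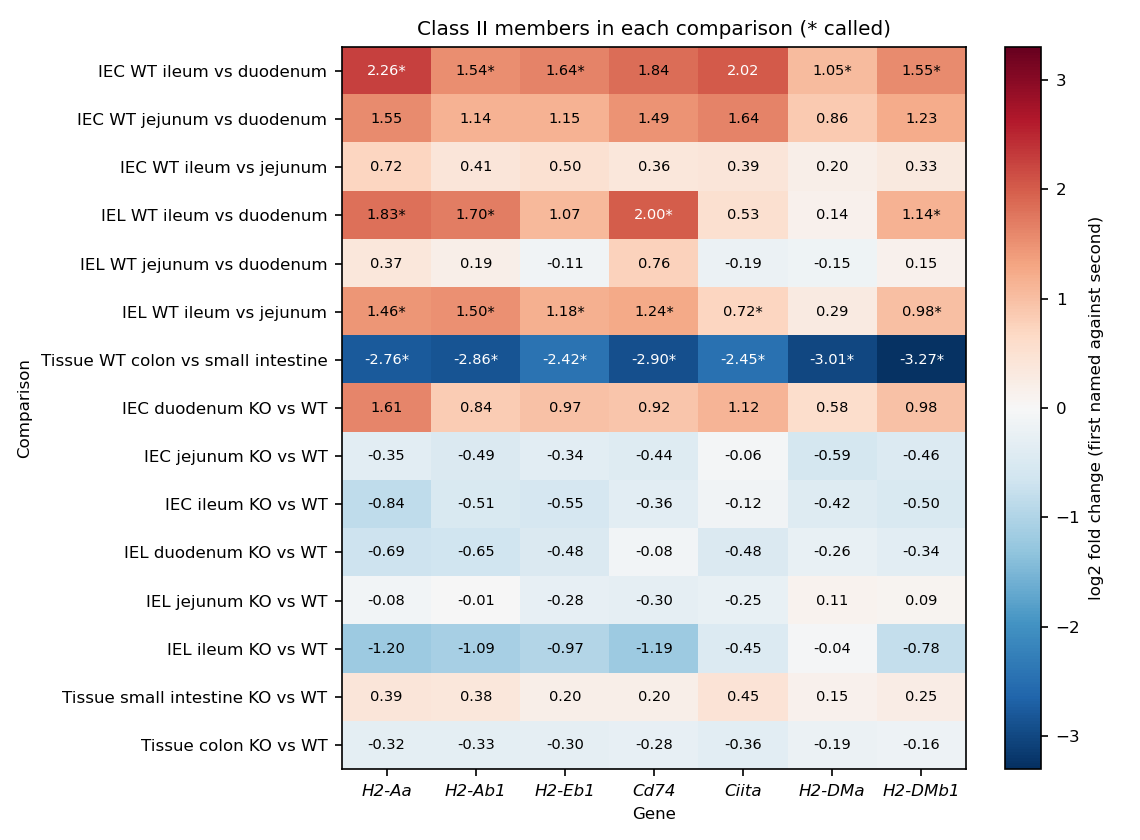
Log2 fold change of each of the 7 genes (columns) in each comparison (rows, the group named first against the second), from edgeR fits, with an asterisk where FDR was under 0.05 and the change over 1.5-fold. The asterisks sit in the rows that compare gut parts within WT, and the 8 rows of Btnl2-KO against WT have none.

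Btnl2 loss brought no called change of a class II gene in IECs. By the same test Btnl2 itself was called in the ileum (−5.88 on the log2 scale, edgeR FDR 0.00143). It was not called in the duodenum (−4.13, edgeR FDR 0.99997) or the jejunum (−2.74, FDR 0.568). A missing call there thus does not show that a gene was unchanged. In the duodenum the 2 KO libraries lay on either side of the WT range, with H2-Aa at 264 and 18.3 CPM around the 41.7 to 54.7 CPM of WT. The upper value belongs to the library with ileal Fabp6. H2-Aa came out 1.61 higher on the log2 scale (SE 0.844, edgeR FDR 0.99997) and the median of the 7 genes 0.97 higher, with 0 of 7 called and 0% of all genes called. At an unadjusted p under 0.05 there were 0 of 7, and 1.22% of all genes. Without that library H2-Aa was at −1.37 and the median of the 7 was −0.80, so the direction turned on 1 library. There 0 of 7 were called and 1 of 7 had an unadjusted p under 0.05, as 71 of 12921 genes had.

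In the jejunum H2-Aa was at 55.8, 181 and 88.8 CPM in KO against 117, 179.8 and 114 CPM in WT, a difference of −0.35 on the log2 scale (SE 0.385, edgeR FDR 0.751). H2-DMa was at 20.4, 33.2 and 23.5 CPM in KO and 34.1, 48.2 and 32.8 CPM in WT, a difference of −0.59 (SE 0.217, edgeR FDR 0.568). The highest KO values are those of library 2, the one with ileal Fabp6 and Btnl2 reads. With it the median of the 7 was −0.44, without it −0.79, and 0 of 7 were called either way (0% of all genes with it). With it 1 of 7 had an unadjusted p under 0.05, as did 8.4% of all genes. Without it 6 of 7 had an unadjusted p under 0.05, as did 6.55% of all genes.

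In the ileum H2-Aa was at 45.3, 199 and 131 CPM in KO and at 226 and 222 CPM in WT. Of the 7 genes 2 did not overlap between KO and WT, and of all 12925 genes tested 2639 did not, in either direction. For H2-Aa all 3 KO libraries lay below both WT libraries. The difference of −0.84 (SE 0.534) had an edgeR FDR of 0.90, and 0 of 7 genes were called, against 0.00774% of all genes, with 0 of 7 at an unadjusted p under 0.05 against 2.07% of all genes. The lowest KO library is the one with duodenal Gata4 and nearly no Fabp6, and without it the median of the 7 went from −0.50 to −0.16, with 0 of 7 called and 0 of 7 at an unadjusted p under 0.05, as 515 of 12883 genes were. Over all segments H2-Aa differed by 0.09 (SE 0.479), with 0 of 7 called against 0.015% of all genes and 0 of 7 at an unadjusted p under 0.05 against 2.59%. Leaving out the 3 libraries moved the median of the 7 genes from −0.01 to −0.58, with 6 of 7 at an unadjusted p under 0.05, as 500 of 13871 genes were. The genotype effect was not called different between segments for any of the 7, and 0 of 7 had an unadjusted p under 0.05 in that interaction test, against 3.13% of all genes. Without the 3 libraries 0 of 7 were called and 0 of 7 had an unadjusted p under 0.05 there, as 516 of 13871 genes had.

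Across the 16 IEC libraries the level of H2-Aa moved with the regional genes. The 7 libraries with the most H2-Aa, at 131 to 264 CPM, were 4 ileal libraries, the duodenal and jejunal KO libraries rich in Fabp6, and jejunum WT library 2. Ileum KO library 1, at 45.3 CPM, sat among the duodenal ones. How much of any genotype difference lies in the part of the gut sampled was not tested.

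**Figure D3:**
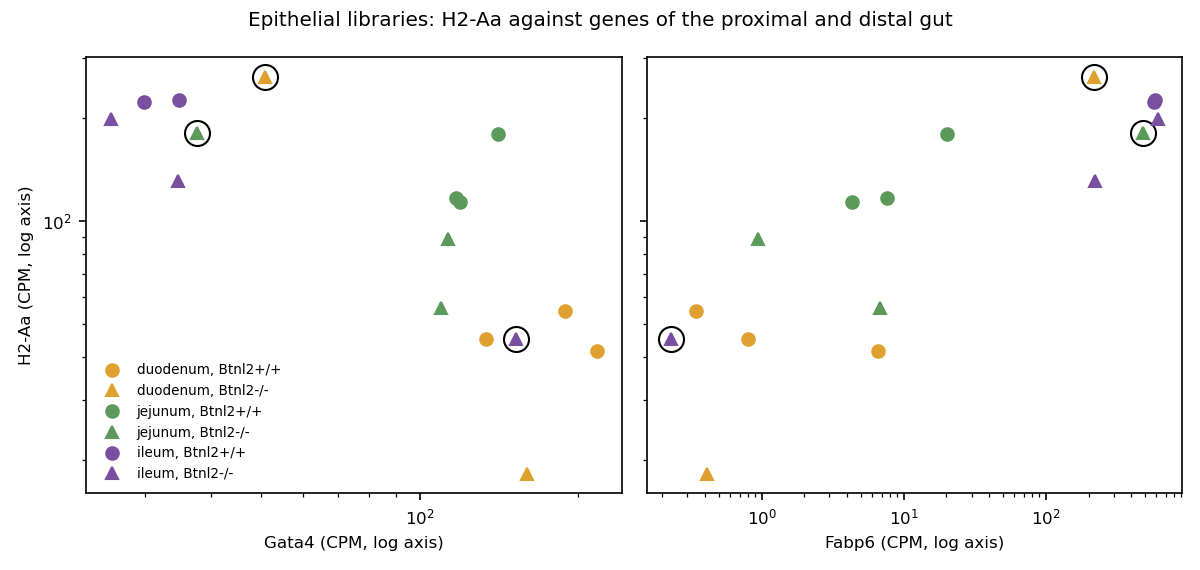
H2-Aa CPM (vertical, log axis) against CPM of Gata4 (left) and Fabp6 (right, log axes) in the 16 epithelial libraries, colored by labeled segment, with triangles for Btnl2-KO and rings around the 3 libraries that stand apart. The ringed duodenal and jejunal libraries lie with the ileal ones at 264 and 181 CPM of H2-Aa, and the ringed ileal library lies with the duodenal ones at 45.3 CPM.

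In the bulk libraries of WT γδ IELs the ileum also led, and the step lay between jejunum and ileum. In the single-cell libraries, given below, the share of cells with H2-Aa had another order. H2-Aa was at 48.5, 25.0, 36.3 and 44.0 CPM in the duodenum, at 47.8, 79.7, 35.8 and 37.4 CPM in the jejunum and at 75.3, 171, 165 and 135 CPM in the ileum. Cd74 was at 178, 66.7, 135 and 153 CPM, then 181, 419, 139.7 and 178 CPM, then 316, 749, 624.7 and 451 CPM. Ileum and duodenum did not overlap for 5 of the 7 genes, when 6.1% of all genes tested did not. H2-DMa went another way: at 112, 85.4, 99.6 and 125 CPM in the duodenum, 109, 99.2, 92.3 and 83.5 CPM in the jejunum and 128, 120.0, 109 and 107 CPM in the ileum, its segments overlapped.

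Against the duodenum, 4 of 7 genes were called higher in the ileum, when 2.16% of all genes were called and 1.15% called higher. Cd74 rose by 2.00 on the log2 scale (SE 0.321, edgeR FDR 0.00642), H2-Aa by 1.83 (SE 0.268, FDR 0.00399), H2-Ab1 by 1.70 (SE 0.272, FDR 0.00643) and H2-DMb1 by 1.14 (SE 0.182, FDR 0.006385). H2-Eb1 was 1.07 higher (SE 0.248, edgeR FDR 0.0511) and Ciita 0.53 (SE 0.300, FDR 0.627), short of the threshold. H2-DMa differed by 0.14 (SE 0.145, edgeR FDR 0.820). At an unadjusted p under 0.05 there were 5 of 7, and 10.3% of all genes.

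Against the jejunum, 6 of 7 were called higher, in a comparison where 21.7% of all genes were called, 10.8% higher and 10.9% lower. H2-Ab1 rose by 1.505 (SE 0.308, edgeR FDR 0.00603), H2-Aa by 1.46 (SE 0.300, FDR 0.00614), Cd74 by 1.24 (SE 0.357, FDR 0.0236), H2-Eb1 by 1.18 (SE 0.263, FDR 0.00828), H2-DMb1 by 0.98 (SE 0.188, FDR 0.00476) and Ciita by 0.72 (SE 0.216, FDR 0.0281). H2-DMa was again the exception, at 0.29 (SE 0.116, edgeR FDR 0.0808). Between jejunum and duodenum, where 23.3% of all genes were called, 0 of 7 members were, with differences of −0.19 to 0.76 on the log2 scale.

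RNA of the pan-epithelial genes moved with these values. Among those genes Epcam is known to be expressed by γδ IELs too, so their sum is not epithelial RNA alone. The summed pan-epithelial CPM was 3511 to 9245 in the WT ileal IEL libraries, 2044 to 5615 in the jejunal ones and 3307 to 5480 in the duodenal ones. Across the 22 IEL libraries, the within-group deviations of H2-Aa followed those of the pan-epithelial sum (Pearson r = 0.864, permutation p = 0.00088, adjusted p = 0.0066; Spearman rho = 0.808, p = 0.00029, adjusted p = 0.00217, over a family of 30 relations), and r was 0.724 without the 2 libraries farthest from the median. H2-DMa did not track it (r = 0.033, permutation p = 0.935, adjusted p = 0.974; rho = −0.108, p = 0.703, adjusted p = 0.811; r = −0.144 without the 2 farthest). Per 1000 CPM of pan-epithelial genes, H2-Aa in WT γδ IELs was 9.27 ± 3.35 CPM (SD, n = 4) in the duodenum, 15.4 ± 4.24 (n = 4) in the jejunum and 19.8 ± 1.21 (n = 4) in the ileum, beside 4.09, 11.7 and 17.1 in IECs. The same ratio for H2-DMa was 12.98 to 137 CPM in IEL libraries and 1.13 to 3.90 CPM in IEC libraries, ranges that lay apart. With the pan-epithelial sum as a covariate, 4 of 7 members were called between ileum and jejunum, when 16.4% of all genes were. Ciita (0.56 on the log2 scale) and Cd74 (0.49) lost their call, and H2-Ab1 (0.87), H2-Aa (0.81), H2-DMb1 (0.67) and H2-Eb1 (0.64) kept theirs. Its part in the segment differences was not tested further. B cell markers did not move with H2-Aa (r = −0.249, permutation p = 0.154, adjusted p = 0.257), and their summed CPM of 98.7 to 180 in IELs was mostly Cd79b.

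**Figure D4:**
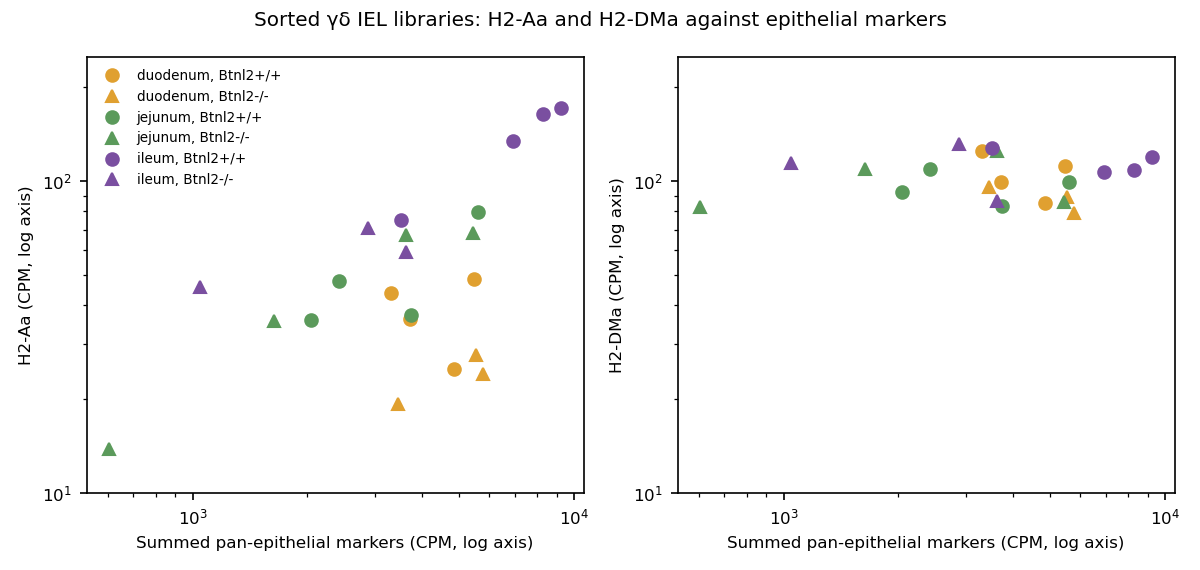
CPM of H2-Aa (left) and H2-DMa (right) against the summed CPM of 12 pan-epithelial genes (log axes) in the 22 sorted γδ IEL libraries, colored by segment, with triangles for Btnl2-KO. H2-Aa spans 13.9 to 171 CPM and climbs with the epithelial sum, and H2-DMa spans 79.0 to 131 CPM along the whole axis.

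In Btnl2-KO γδ IELs the class II genes were lower in the ileum than in WT, short of the threshold. H2-Aa was at 70.9, 45.8 and 59.3 CPM in KO against 75.3, 171, 165 and 135 CPM in WT. H2-Ab1 was at 177, 99.04 and 139 CPM against 188, 389, 344 and 272 CPM, and Cd74 at 274, 145 and 278 CPM against 316, 749, 624.7 and 451 CPM. All KO libraries lay below all WT libraries for 4 of the 7 genes, with WT library 1 the nearest to them, and 6.89% of all genes tested had no overlap in either direction.

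The differences on the log2 scale were −1.20 (SE 0.290) for H2-Aa, −1.19 (SE 0.338) for Cd74, −1.09 (SE 0.290) for H2-Ab1, −0.97 (SE 0.278) for H2-Eb1 and −0.78 (SE 0.242) for H2-DMb1. Ciita was at −0.46 (SE 0.307) and H2-DMa at −0.04 (SE 0.200). The edgeR FDRs ran from 0.43 to 0.96 and 0 of 7 were called, as 0% of the 12604 genes tested were. Btnl2 itself was among the genes not called, at −5.92 (SE 0.870, edgeR FDR 0.263). At an unadjusted p under 0.05 there were 5 of 7 members and 8.79% of all genes. DESeq2 called 3 members among 221 genes and limma-voom with sample quality weights called 5 among 1207.

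The pan-epithelial sum was lower in the same KO libraries, at a mean of 2524 CPM (1047 to 3635) against 6988 CPM in WT. With it as a covariate the median of the 7 genes went to −0.39 and 0 of 7 had an unadjusted p under 0.05. Per 1000 CPM of pan-epithelial genes, H2-Aa was 28.2 ± 14.1 CPM (SD, n = 3) in KO and 19.8 ± 1.21 (n = 4) in WT, so the direction of the difference depended on the scale.

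In the duodenum H2-Aa was at 27.7, 19.4 and 24.2 CPM in KO against 48.5, 25.0, 36.3 and 44.0 CPM in WT, or −0.69 on the log2 scale (SE 0.227, edgeR FDR 0.997), and H2-DMa differed by −0.26 (SE 0.155). All 7 were negative, with a median of −0.48, 3 had an unadjusted p under 0.05 (2.07% of all genes) and 0 were called, against 0.00789% of all genes. In the jejunum H2-Aa was at 67.4, 13.9, 35.6 and 68.1 CPM in KO, around the WT range, at −0.08 (SE 0.481), and 0 were called against 0.00794% of all genes. Jejunum KO library 2, with 605 CPM of pan-epithelial genes, had the lowest level of 6 of the 7 members of any IEL library, H2-DMa excepted. Over all segments H2-Aa was at −0.64 (SE 0.248, edgeR FDR 0.9998), the median of the 7 at −0.52, and 0 were called against 0.015% of all genes, with 4 at an unadjusted p under 0.05 against 1.59%. In the interaction of genotype and segment 0 of 7 were called, as 0% of all genes were, and 0 of 7 had an unadjusted p under 0.05, against 7.78% of all genes.

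In whole tissue the class II genes set small intestine apart from colon. H2-Aa was at 443 to 674 CPM (median 628) in the 7 WT small intestines and 59.2 to 112 CPM (median 94.7) in the 6 WT colons. H2-DMa was at 57.0 to 88.7 CPM (median 75.5) and 7.04 to 10.6 CPM (median 9.71), and Cd74 at 1356 to 1953 CPM (median 1593) and 149 to 281 CPM (median 247). None of the 7 overlapped, nor did 24.8% of all genes tested. All 7 were called lower in the colon, where 27.6% of all genes were called and 15.6% called lower, and 53.2% of all genes had an unadjusted p under 0.05. The differences were −3.27 (SE 0.143) for H2-DMb1, −3.01 (SE 0.134) for H2-DMa, −2.90 (SE 0.182) for Cd74, −2.86 (SE 0.146) for H2-Ab1, −2.76 (SE 0.184) for H2-Aa, −2.45 (SE 0.286) for Ciita and −2.42 (SE 0.143) for H2-Eb1, with edgeR FDRs no higher than 7.73e-06.

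The remaining class II chains did not fall with them. H2-Oa, H2-Ob, H2-Eb2 and H2-DMb2, the 4 of 5 further chain and editor genes tested, gave 0 calls and a median of 0.40. H2-Ob, a chain of the editor's inhibitor H2-O and known from B cells, was at 2.21 to 21.6 CPM (median 3.31) in WT small intestine and 1.93 to 15.3 CPM (median 8.94) in WT colon, overlapping ranges. Of 5 B cell genes 0 were called, of 10 myeloid and dendritic genes 8 were called lower in the colon, and of 8 γδ IEL and T cell genes all 8 were. The summed γδ IEL and T cell genes were at 68.4 to 227 CPM in small intestine and 5.40 to 13.3 CPM in colon, over both genotypes. Within groups H2-Aa followed them over the 27 tissue libraries (r = 0.817 and rho = 0.752, permutation p = 1e-05 for both, the smallest the resampling can give, adjusted p = 0.00015; r = 0.693 without the 2 farthest). H2-Aa was related to the B cell, the myeloid and dendritic, and the interferon-γ-induced lists too. To the pan-epithelial sum it was not (r = 0.133, permutation p = 0.375, adjusted p = 0.511, and r = −0.015 without the 2 farthest). For the B cell sum r was 0.513 (permutation p = 0.00486, adjusted p = 0.0182; rho = 0.607, p = 0.00172, adjusted p = 0.00645; r = 0.480 without the 2 farthest). For the myeloid and dendritic sum r was 0.482 (permutation p = 0.0152, adjusted p = 0.038; rho = 0.492, p = 0.0142, adjusted p = 0.0328; r = 0.475 without the 2 farthest). For the interferon-γ-induced sum r was 0.635 (permutation p = 0.00143, adjusted p = 0.00715; rho = 0.540, p = 0.0021, adjusted p = 0.007; r = 0.460 without the 2 farthest). Their part in the difference was not tested.

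Genotype moved no class II gene past the threshold in whole tissue. In the small intestine H2-Aa was at 384.3 to 956 CPM (median 841) in KO and 443 to 674 CPM (median 628) in WT, a difference of 0.39 (SE 0.172, edgeR FDR 0.200), and H2-DMa at 0.15 (SE 0.120). All 7 were positive with a median of 0.25 and 3 had an unadjusted p under 0.05, as did 23.0% of all genes. None was called, against 0.0202% of all genes. Without the 3 libraries with over 10 CPM of Gata4, a sign of proximal tissue, the median was 0.18 and 0 had an unadjusted p under 0.05. In the colon H2-Aa was at 45.8 to 111 CPM (median 66.0) in KO and 59.2 to 112 CPM (median 94.7) in WT, at −0.32 (SE 0.206, edgeR FDR 0.972). All 7 were negative, with a median of −0.30 and 0 called, against 0.0269% of all genes, and 0 had an unadjusted p under 0.05, against 4.14%. The interaction of genotype and organ was at −0.70 for H2-Aa (SE 0.280, edgeR FDR 0.324) with 0 of 7 called against 0.0193%. Unadjusted edgeR p was 0.0159 for H2-Ab1, 0.0187 for H2-Aa, 0.0481 for Ciita and 0.0734 to 0.121 for the rest, at FDRs of 0.323 to 0.486. Over both organs H2-Aa was at 0.05 and H2-DMa at −0.00, with 0 called against 0.045% of all genes.

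The other genes of the pathway gave a mixed picture. Of 18 genes known to be induced by interferon-γ, 17 could be tested between WT ileal and duodenal IECs. Called higher were 2, Ubd, a ubiquitin-like modifier (3.31 on the log2 scale), and the GTPase gene Iigp1 (2.67), 16 were positive and the median was 0.86, beside −0.01 for all genes. None of the 7 genes of the RFX, NF-Y and CREB factors tested was called, nor any of 7 interferon-γ signaling genes, 7 antigen processing genes and 2 costimulation genes. In IELs the picture between WT ileum and jejunum differed: of 16 induced genes 0 were called higher and 4 lower (Gbp2, Gbp4, Gbp6 and Irgm2), with a median of −0.38, and Rfx5, which encodes a subunit of RFX, fell by 1.01. The kinase gene Jak2 and the costimulation genes Icosl and Cd274 fell as well, by 0.89, 0.87 and 1.003. H2-Oa, a chain of the H2-DM inhibitor H2-O, rose by 0.91 there, and Ifng itself by 0.81. From WT duodenum to jejunum 5 of 16 induced genes were called higher and 1 lower, while 0 members were called, and Ifi30, a thiol reductase gene of antigen processing, fell by 1.02. None of these genes was called between WT ileal and duodenal IELs. Between WT colon and small intestine all 18 induced genes were called lower, with a median of −2.02, and Nlrc5, the class I counterpart of Ciita, fell by 2.60. In the signaling list Socs1 fell by 2.15 and Irf1 by 0.73, and in the factor list 1 of 7 was called, Rfxank, which rose by 0.75. No gene of these lists was called in any comparison of Btnl2-KO with WT, where at most 0.045% of all genes were called. Of all genes, 2.78% were called higher between WT ileal and duodenal IECs, and 15.6% lower in the WT colon. In WT IELs 10.9% were called lower between ileum and jejunum. In either direction, 23.3% were called between WT jejunal and duodenal IELs and 2.16% between ileal and duodenal ones.

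Class II genes rose and fell together from library to library. The pairwise correlations of their within-group deviations had a median of 0.933 over the 16 IEC libraries (0.74 to 0.99), 0.790 over the 22 IEL libraries (0.31 to 0.96) and 0.878 over the 27 tissue libraries (0.69 to 0.95), with depth and cell makeup shared by all genes of a library. The genes outside the members most like them differed by preparation, with likeness taken as Pearson's r between a gene's within-group deviations and those of the mean of H2-Aa, H2-Ab1, H2-Eb1 and Cd74. In IECs they were led by Plet1 (r = 0.952) and Grpr (0.947), with Nos2 (0.943) and Iigp1 (0.936) among the first 10 outside the members, of 13344 genes, and Ciita was at rank 253 (r = 0.837). These are values over 16 libraries of which 3 stand apart, and without those the first was Ticam2 (r = 0.979). In IELs they were led by Noxo1 (r = 0.936) and held Rab25, an epithelial GTPase gene, with Ciita at rank 734 (r = 0.745) and H2-DMa at rank 2750 (r = 0.379). In whole tissue they were led by the class I gene H2-Q6 (r = 0.853) and the T cell genes Cd8a (0.849), Zap70 (0.845) and Cd3e (0.844), with Nlrc5 (0.826) among the first 10. Deviations of H2-Aa also followed the sum of the interferon-γ-induced genes over the 16 IEC libraries (r = 0.843, permutation p = 0.00124, adjusted p = 0.00715; rho = 0.838, p = 0.0017, adjusted p = 0.00645; r = 0.818 without the 2 farthest).

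The single-cell libraries gave the same genes cell by cell. Cells were kept with 500 or more genes and no more than 10% of UMIs from mitochondrial genes. This left 3589 to 4647 cells per library, with a median of 4877 to 5468 UMIs, and 99.5 to 99.9% of them had a Cd3e UMI. Pairs of libraries shared 19 to 31 cell barcodes. With 1 library per genotype and segment no test of genotype or segment was made, and the exact 95% intervals below cover counting error only.

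H2-DMa was the commonest member in each of the 6 libraries. It was found in 29.8% of WT duodenal cells (28.3 to 31.2%), 28.3% of WT jejunal cells (26.8 to 29.8%) and 27.7% of WT ileal cells (26.3 to 29.2%), and in 26.5% (25.1 to 27.9%), 26.0% (24.6 to 27.4%) and 29.5% (28.2 to 30.9%) of KO cells in the same order. Its intervals overlapped or nearly met across segments. H2-Aa was found in 5.62% of WT duodenal cells (4.92 to 6.39%), 3.32% of WT jejunal cells (2.75 to 3.95%) and 3.31% of WT ileal cells (2.76 to 3.94%), and in 3.38% (2.83 to 3.99%), 2.36% (1.90 to 2.89%) and 2.80% (2.34 to 3.31%) of KO cells. By share of cells, the lead of the WT ileum in bulk H2-Aa was thus not seen. Pooled H2-Aa UMIs in WT duodenum, jejunum and ileum numbered 459, 221 and 458, of 21841574, 19043347 and 20536145 UMIs. Relative to these totals the ileum was highest, close to the duodenum, and the jejunum lowest. Pooled Cd74 UMIs, at 788, 661 and 1539, were highest in the ileum. Fabp2, an enterocyte gene that a lymphocyte should lack, gave UMIs in 2.70 to 5.12% of the same cells. The share for H2-Aa was no larger than that of Fabp2 in 5 libraries and was 5.62% against 4.68% in WT duodenum. That of H2-DMa was above the share of Fabp2 in all 6. Stray RNA of a gene depends on its own abundance at the source, so Fabp2 sets no background level for the members.

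Of the other members, H2-Eb1 was in 5.05 to 9.57% of cells, Cd74 in 4.47 to 7.45%, H2-DMb1 in 4.13 to 6.21%, H2-Ab1 in 2.62 to 5.77% and Ciita in 0.689 to 1.28%. At least 1 UMI of any of the 7 was in 38.1, 44.2, 34.8, 39.8, 39.6 and 39.1% of cells (duodenum KO and WT, jejunum KO and WT, ileum KO and WT). H2-Aa, H2-Ab1, H2-Eb1 and Cd74 each had a lower share in the KO than in the WT library of all 3 segments, also after every cell was thinned to 2000 UMIs, as with H2-Aa at 1.62 against 2.78% in the duodenum, 1.16 against 1.51% in the jejunum and 1.30 against 1.66% in the ileum. The order was not the same in every set of cells or on every scale. Among the cells with no UMI of any pan-epithelial, B cell or myeloid gene, H2-Aa was in 2.23% of 943 ileal KO cells (1.38 to 3.38%) and 1.23% of 734 ileal WT cells (0.562 to 2.31%). Cd74 was there in 3.499% of KO and 3.27% of WT ileal cells and in 3.93% of KO and 3.02% of WT jejunal cells, and its pooled UMIs in the whole jejunal libraries came to 36.9 CPM in KO and 34.7 CPM in WT. These are descriptions of 3 pairs of libraries, and thinned shares stand near the level of 1 UMI per cell. In CPM of the pooled UMIs, H2-DMa was at 55.6 to 65.8 and H2-Aa at 8.47 to 22.3, with H2-DMa 2.73 to 6.57 times as many UMIs as H2-Aa.

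**Figure D5:**
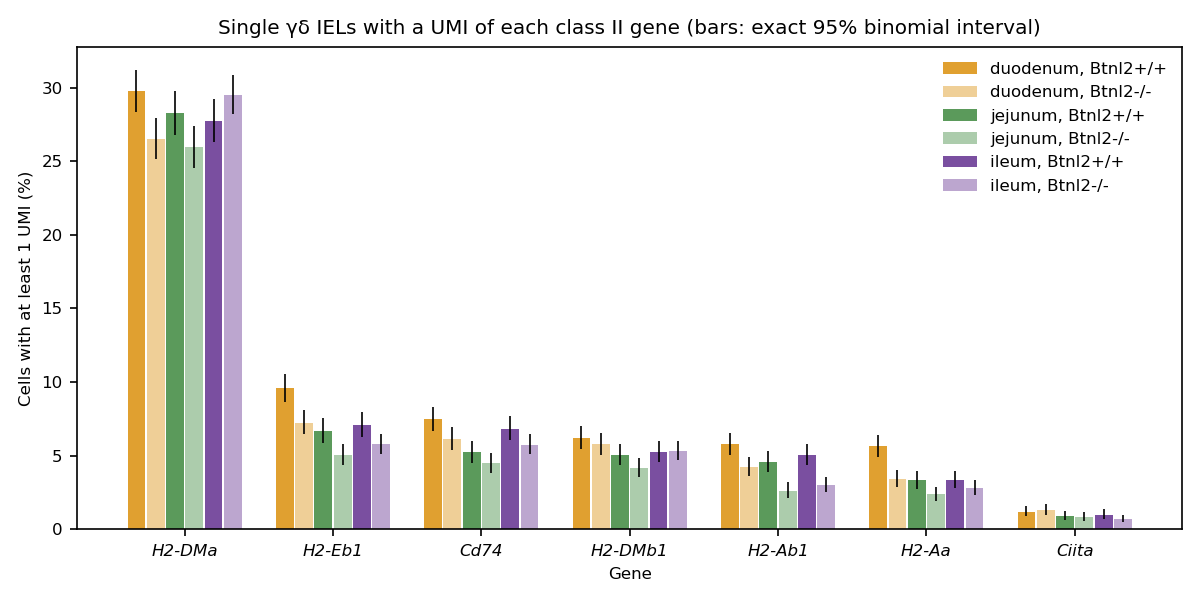
Share of single γδ IELs with at least 1 UMI of each class II gene (vertical, percent, from 0) in the 6 single-cell libraries, colored by segment with paler bars for Btnl2-KO, and error bars for the exact 95% binomial interval. H2-DMa stands at 26.0 to 29.8% in every library, and H2-Aa at 2.36 to 5.62%.

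A few cells held much of the class II RNA. Cells with over 20 UMIs of the 7 genes numbered 4, 13, 10, 6, 8 and 13 (same order), yet held 3.61, 14.9, 25.3, 17.9, 22.6 and 41.1% of all member UMIs, with 303 in the richest cell. Of these cells 2, 3, 4, 4, 7 and 12 carried B cell, myeloid or epithelial markers, and so most of the richest cells in both ileal libraries did. Cd74 was at 74.9 CPM in the WT ileal library against 25.3 to 37.2 CPM in the others, and at 59.0 CPM there without the cells with B cell or myeloid markers. The 73 cells with pan-epithelial markers held 49.4% of its UMIs in that library.

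A further set of cells held several class II UMIs and no set of markers of another type. Cells with at least 6 member UMIs and no other-type markers, a limit chosen after the values were seen, numbered 67, 85, 40, 40, 54 and 57, or 1.08 to 2.21% of the marker-free cells, and each had a Cd3e UMI. At least 4 of the 7 genes were detected in 46, 69, 30, 25, 35 and 40 of them. H2-Aa was detected in 52, 73, 31, 32, 37 and 44, and Ciita in 1 to 3 per library. An Epcam UMI was found in 20.4 to 32.5% of them and in 32.7 to 41.3% of cells with no member UMI, so they were not richer in this epithelial gene, which γδ IELs are known to express. They were deeper, at a median of 5919 to 7168 UMIs against 4585 to 5179. No doublet caller was run, and cells captured in pairs were not separated from single ones.

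Genes were compared if they had at least 10 UMIs in these cells of each library, 3703 in all. Of them 1 was over 2-fold lower, and 7 were over 2-fold higher, than in cells with no member UMI in all 6 libraries. They were Lgals1 (7.62- to 44.7-fold), which encodes galectin-1, Capg (2.86- to 9.91-fold), an actin-capping protein gene, the thymidine kinase gene Tk1 (5.21- to 35.3-fold), 2810417H13Rik (3.799- to 48.6-fold), Hells (2.85- to 5.91-fold), a chromatin remodeler gene, Cks1b (2.81- to 15.1-fold), which encodes a subunit of cyclin-dependent kinases, and Stmn1 (2.30- to 45.0-fold), which encodes the microtubule regulator stathmin. Cd3e was at 0.85 to 0.98 times, Gzma at 0.81 to 1.12 times, Cd8a at 0.61 to 0.83 times and Cd7 at 0.50 to 0.73 times their level in the cells without class II UMIs. These genes were chosen by their values and carry no test. The minimum of UMIs was set on the cells with several class II UMIs only, so a gene scarce elsewhere entered only where it was high in them.

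The chain genes were found in the same cells. Among marker-free cells with an H2-Aa UMI (80 to 212 per library), H2-Eb1 was in 46.6 to 56.1% against 3.85 to 6.57% of cells without one, Cd74 in 41.3 to 58.1% against 3.40 to 4.98%, H2-Ab1 in 28.8 to 39.6% against 1.83 to 3.85% and H2-DMb1 in 22.0 to 35.0% against 3.27 to 5.06%. H2-DMa differed less, at 30.3 to 47.5% against 25.3 to 29.4%, and so did Ciita, at 0.47 to 3.77% against 0.64 to 1.26%. Fabp2 was in 0 to 7.63% of cells with H2-Aa and 2.46 to 4.63% of cells without, with 0 of 80 cells in the KO jejunum. Depth differed less between these cells, at a median of 5347 to 6258 UMIs with H2-Aa and 4826 to 5418 without.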

How the data were processed

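The 7 genes and the pathway and marker lists were chosen with earlier results of these data known. For bulk RNA-seq the authors mapped paired reads to a customized mouse genome (GRCm38 per the labels) with ArrayStudio and deposited RSEM expected counts, one table per preparation. The study's methods describe exon reads of the sense strand, but its labels and methods name different library kits, so whether the counts used strand was not settled here. The counts were rounded to whole numbers here. For single cells the authors deposited raw UMI counts per cell from a 10x 5′ library. Reads in rows without a gene name (0.253 to 9.24% of a library) were left out of library sizes. The IEL table has 1 further column of values, which matched no sample and was not used.

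Each comparison was fitted on its own groups with edgeR 4.0.16 (TMM, quasi-likelihood test) in R 4.3.3, over genes that reached 10 counts in a number of libraries equal to the size of the smaller group. A gene was called at a Benjamini-Hochberg FDR under 0.05 and over 1.5-fold. SE is the log2 fold change divided by the root of F. CPM use TMM library sizes. Correlations across libraries used deviations from group means of log2 CPM (prior count 2) and 100000 permutations within groups, with scipy 1.17.1. Groups came from sample labels, and replicate numbers follow accession order and pair nothing. Fits were tested on simulated data: of genes changed 2-fold, 13% were recovered between WT ileal and duodenal IECs (12784 genes), 16% between KO and WT ileal IELs (12604 genes) and 83% between KO and WT small intestines (14866 genes), and of genes changed 4-fold 76%, 77% and 97%. The alternatives were DESeq2 1.42.0, limma 3.58.1 (voom with quality weights), other scaling and filters, a fit over all libraries, marker covariates, and leaving out libraries.

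Single cells were kept at 500 genes or more and at most 10% mitochondrial UMIs. Cells with at least 2 B cell genes, 2 myeloid genes or 3 pan-epithelial genes were called marker-bearing. Thinning drew 2000 UMIs per cell and left out shallower cells, and intervals are exact Clopper-Pearson. No doublets were removed. The genes named were all 7 members, Btnl2, the lists by their counts with the genes of lowest p or largest change, and per bulk table the 10 genes most like the mean of H2-Aa, H2-Ab1, H2-Eb1 and Cd74. Further genes were named after their values were seen. T cell receptor sequences were not analysed here.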

Additional observations from a re-analysis of the deposited data

Results flagged for a closer look

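Of 56 pairs of a member and a group of 4 to 10 bulk libraries, 8 held a library far from the rest by Dixon's test at the 5% level, where chance gives about 2.8. Small intestine KO library 3 accounted for 6 of them, as the lowest of 7 libraries by a wide gap. It had 384.3 CPM of H2-Aa with the next at 728, 328.4 CPM of H2-Ab1 with the next at 651, 267.6 CPM of H2-Eb1 with the next at 456, and 1037 CPM of Cd74 with the next at 1713. Its H2-DMa was 55.0 CPM with the next at 78.2, and its H2-DMb1 63.7 CPM with the next at 96.1. Since the 7 members move together, these 6 are not independent. The other pairs both concern H2-DMb1 in WT γδ IELs: duodenum library 2 had 20.1 CPM with the next at 25.6, and ileum library 1 had 36.2 CPM with the next at 58.2. Ileum library 1 also had the least pan-epithelial RNA of the WT ileal IEL libraries, at 3511 CPM, whose part in its low value was not tested.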

How the results depend on the processing

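Single-gene values and counts kept their direction and side of the threshold in 489 cases under the alternatives that keep or regroup libraries and in 607 on leaving out 1 library, became significant in 28 and 5, lost significance in 12 and 25 and reversed in 14 and 29. Counts of members called that moved by over 1.5 times were, in WT IECs, 0 between ileum and duodenum in one fit over all libraries, and 7 with DESeq2, 2 with no filter and 3 with voom between jejunum and duodenum. In IELs they were 3 with DESeq2 and 5 with voom for KO against WT in the ileum, 2 in one fit between WT ileum and duodenum, 1 with the pan-epithelial covariate between WT jejunum and duodenum, and 2 with voom for the interaction. Thinning to 2000 UMIs moved the share of cells with any member to 20.01, 22.2, 17.5, 19.6, 17.4 and 19.6% (duodenum, jejunum and ileum, KO before WT).

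Reversed log2 values for KO against WT were −1.37 (H2-Aa) and −0.80 (H2-DMa) in duodenal IECs without the 3 libraries that stand apart, −0.86 (H2-Aa) over all IEC segments without them and −0.63 with voom. In IELs they were 0.34 (voom) and 0.21 (pan-epithelial covariate) for H2-Aa in the jejunum and 0.15 (voom) for H2-DMa in the ileum. Over both organs in tissue H2-Aa was −0.10 with voom and −0.059 without the libraries over 10 CPM of Gata4, an alternative chosen after seeing the data, and H2-DMa, at −0.00, went to 0.0095 (DESeq2), 0.0079 (relative log expression), 0.0033 (no filter), 0.094 (voom) and 0.031 (B cell covariate). The cause was not tested.

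Leaving out each library in turn, the members called ranged from 0 (without ileum library 1) to 7 (without duodenum library 2) for WT ileal against duodenal IECs, 0 to 1 for WT jejunal against duodenal IECs, 0 to 1 for KO against WT ileal IELs, 4 to 5 for WT ileal against duodenal IELs and 4 to 6 for WT ileal against jejunal IELs. Values that reversed ran from −1.37 to 2.51 (H2-Aa) and −0.80 to 1.27 (H2-DMa) for duodenal IECs KO against WT, −0.71 to 0.27 (H2-Aa, IECs over all segments), −0.065 to 0.74 (Ciita, WT ileal against jejunal IECs), −0.40 to 0.24 (H2-Aa) and −0.0055 to 0.21 (H2-DMa) for jejunal IELs KO against WT, −0.17 to 0.12 (H2-DMa, ileal IELs KO against WT), −0.39 to 0.012 (Ciita) and −0.15 to 0.41 (H2-Ab1) for WT jejunal against duodenal IELs, and −0.024 to 0.057 (H2-DMa, tissue KO against WT over both organs). A lone remaining duodenal KO library was assumed to vary like the rest. No paired analysis was possible because the replicate numbers follow accession order. Duodenal KO and ileal WT IECs rest on 2 libraries each, and the single-cell groups on 1, which limits what could be called at this depth.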
